A study of Homo sapiens with 4 samples.

Results

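The 10 genes described here encode cytokine receptor chains (IFNGR1, IFNGR2, IFNAR1, TNFRSF1A and IL6ST), Janus kinases (JAK1 and JAK2) and inhibitors of the suppressor of cytokine signalling family (SOCS1, SOCS2 and SOCS3). They were chosen by name as the entry points of signalling by interferon gamma, type I interferons, tumor necrosis factor and interleukin 6-type cytokines together with their feedback inhibitors, and each name matched 1 of the 36602 genes measured. The cells were OVCAR5, an established human ovarian carcinoma line, exposed in culture to the supernatant of a coculture of tumor cells with T cells. The 24 conditions were 6 supernatant levels (unstimulated, undiluted, and diluted 5, 25, 125 or 625 times), each at 4 exposure times (2, 6, 12 and 24 h). All were hashed with antibody-borne oligonucleotide tags and pooled, and their 3′ transcript ends were sequenced cell by cell on a droplet platform.

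Which pair of tags marks which condition is not given in the labels. Each of the 24 tag pairs is therefore called a hashtag sample, is named by its tags (HTO5/HTO8) and carries no condition. A condition was 1 culture of the same line, so there were no replicates, no groups were compared and no test was run. The values below are levels and their spread over samples, with intervals for counting error only. Samples named as highest or lowest were picked by their values, and the intervals do not allow for that choice. A ratio of highest to lowest is thus above 1 by design, also where samples differ by counting error alone.

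Receptors for interferons and for interleukin 6-type cytokines have no kinase activity of their own. Their cytoplasmic tails carry Janus kinases, which phosphorylate STAT transcription factors once a ligand brings the receptor chains together, and the STATs then enter the nucleus and switch on target genes. SOCS1, SOCS2 and SOCS3 are among those targets: their proteins bind kinases or receptor tails and recruit a ubiquitin ligase through elongins B and C, which closes a negative feedback loop. TNFRSF1A, the main signalling receptor for tumor necrosis factor, works without Janus kinases and leads to NF-kB.

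The 5298 cells with a hashtag sample gave 73107924 UMIs, or unique molecular identifiers, which count captured RNA molecules rather than reads. The 24 samples held 137 to 272 cells and 1863154 to 3904112 UMIs each, so that 3 counts, taken as the floor, corresponded to 0.768 to 1.61 counts in 1000000 UMIs (CPM). Sample HTO3/HTO9 had the shallowest cells, with a median of 9389 UMIs, and also the highest mitochondrial share, with a median of 13.8%. Of 8 epithelial markers, 7 had at least 50 UMIs, MUC16 being the exception, and their summed level was 1833 to 3646 CPM. Most CDH1 UMIs came from a small set of cells with KRT81, described below: 230 in that set and 14 in all other kept cells. Of 13 T cell markers, 7 had no UMI in any sample, among them CD3E and PTPRC. The summed level of these markers was at most 6.98 CPM and consisted mostly of TRBC2.

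SOCS1 and IFNGR2 had the widest ranges between samples on the log2(CPM + 10) scale used below, and their promoters are shown here beside that of SOCS3, the feedback inhibitor whose levels followed another course. The sequences are from RefSeq on GRCh38.p14 and cover 250 bases before to 50 bases after the annotated start, 5′ to 3′ on the gene's strand. The SOCS1 window is chr16:11256155-11256454 on the minus strand, the IFNGR2 window is chr21:33403163-33403462 on the plus strand, and the SOCS3 window is chr17:78360876-78361175 on the minus strand. Capitals mark matches to the motifs named below.
SOCS1: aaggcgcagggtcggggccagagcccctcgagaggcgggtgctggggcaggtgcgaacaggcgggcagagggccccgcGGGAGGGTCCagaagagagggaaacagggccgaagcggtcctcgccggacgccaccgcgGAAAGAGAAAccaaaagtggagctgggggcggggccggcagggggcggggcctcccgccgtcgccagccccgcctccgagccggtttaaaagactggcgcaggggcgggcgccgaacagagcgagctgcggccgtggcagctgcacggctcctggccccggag
IFNGR2: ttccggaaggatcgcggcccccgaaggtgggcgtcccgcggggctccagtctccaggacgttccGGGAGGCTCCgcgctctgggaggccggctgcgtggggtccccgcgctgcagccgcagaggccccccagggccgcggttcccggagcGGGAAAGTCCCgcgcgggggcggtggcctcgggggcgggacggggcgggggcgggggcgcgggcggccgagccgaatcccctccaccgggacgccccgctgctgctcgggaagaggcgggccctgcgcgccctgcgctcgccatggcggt
SOCS3: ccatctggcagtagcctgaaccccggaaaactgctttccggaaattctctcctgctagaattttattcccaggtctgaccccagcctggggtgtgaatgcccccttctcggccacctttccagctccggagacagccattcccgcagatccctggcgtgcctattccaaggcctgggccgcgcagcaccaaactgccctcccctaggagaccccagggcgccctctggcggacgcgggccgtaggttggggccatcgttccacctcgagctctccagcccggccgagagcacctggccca

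Promoter entries were matched for 9 of the 10 genes, all but SOCS2. The motifs searched, on both strands, were the interferon-stimulated response element ISRE (GAAA, any 2 bases, GAAA), the gamma-activated site GAS (TTC, any 3 bases, GAA) and the NF-kB site kappa B (GGGA, any 3 bases, TCC). SOCS1 held the single ISRE match among the 9 windows, GAAAGAGAAA 113 bases upstream of the start, and a kappa B match, GGGAGGGTCC 172 bases upstream. IFNGR2 held kappa B matches only: GGGAGGCTCC 186 bases upstream, and GGGAAAGTCC 100 bases upstream with its overlapping opposite-strand match GGAAAGTCCC 99 bases upstream. The other 7 windows, SOCS3 and JAK2 among them, held none of the 3 motifs, and no window held the GAS letters. Among all 27305 promoters of the same length, 3.65% held the ISRE letters, 7.88% the GAS letters and 5.07% the kappa B letters. The RefSeq starts differ from the outermost GENCODE 29 starts of the loci given below, which only 4 of the 9 windows hold. The SOCS1 window is among the 4. The SOCS3 window ends 799 bases upstream of the GENCODE start, the JAK1 window 101193 bases upstream, and the IFNGR2 window begins 267 bases downstream. A match, or none, describes these letters in this window only.

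Levels of the 10 genes varied between samples to very different degrees. The range of a gene is here its value in the highest sample minus that in the lowest, on the log2(CPM + 10) scale. Only genes whose mean over the samples reached 20 CPM were counted. This minimum was passed by 7 of the 10 genes, while IFNGR1, JAK2 and SOCS2 fell below it. Of those 7, SOCS1 and IFNGR2 ranged 4-fold or more, where 4.13% of the 5767 genes that passed the minimum did. IFNGR2 was just inside that limit with a range of 2.06 on the log2 scale, and SOCS3 just outside it with 1.93. The order depends on the added 10 CPM, which damps genes of low level. By the plain ratio of highest to lowest sample, JAK2 (10.9), SOCS2 (8.74) and SOCS3 (6.96) stood above IFNGR2 (5.35). A range of 2-fold or more was found for 5 of the 7 (SOCS1, IFNGR2, SOCS3, IL6ST and IFNAR1), against 26.1% of those 5767 genes. The count of 2 genes at 4-fold was 1 without HTO3/HTO9 or without HTO7/HTO10, and with 50 CPM in place of 10 CPM as the pseudocount the counts were 0 at 4-fold and 2 at 2-fold. The median range of the 7 was 1.18, and that of all 5767 genes was 0.74.

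A UMI of a 3′ library marks the 3′ end of a molecule and was not divided by gene length, so levels are compared between samples and not between genes. A summed level cannot tell fewer cells with a transcript from less RNA per cell.

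**Figure D1:**
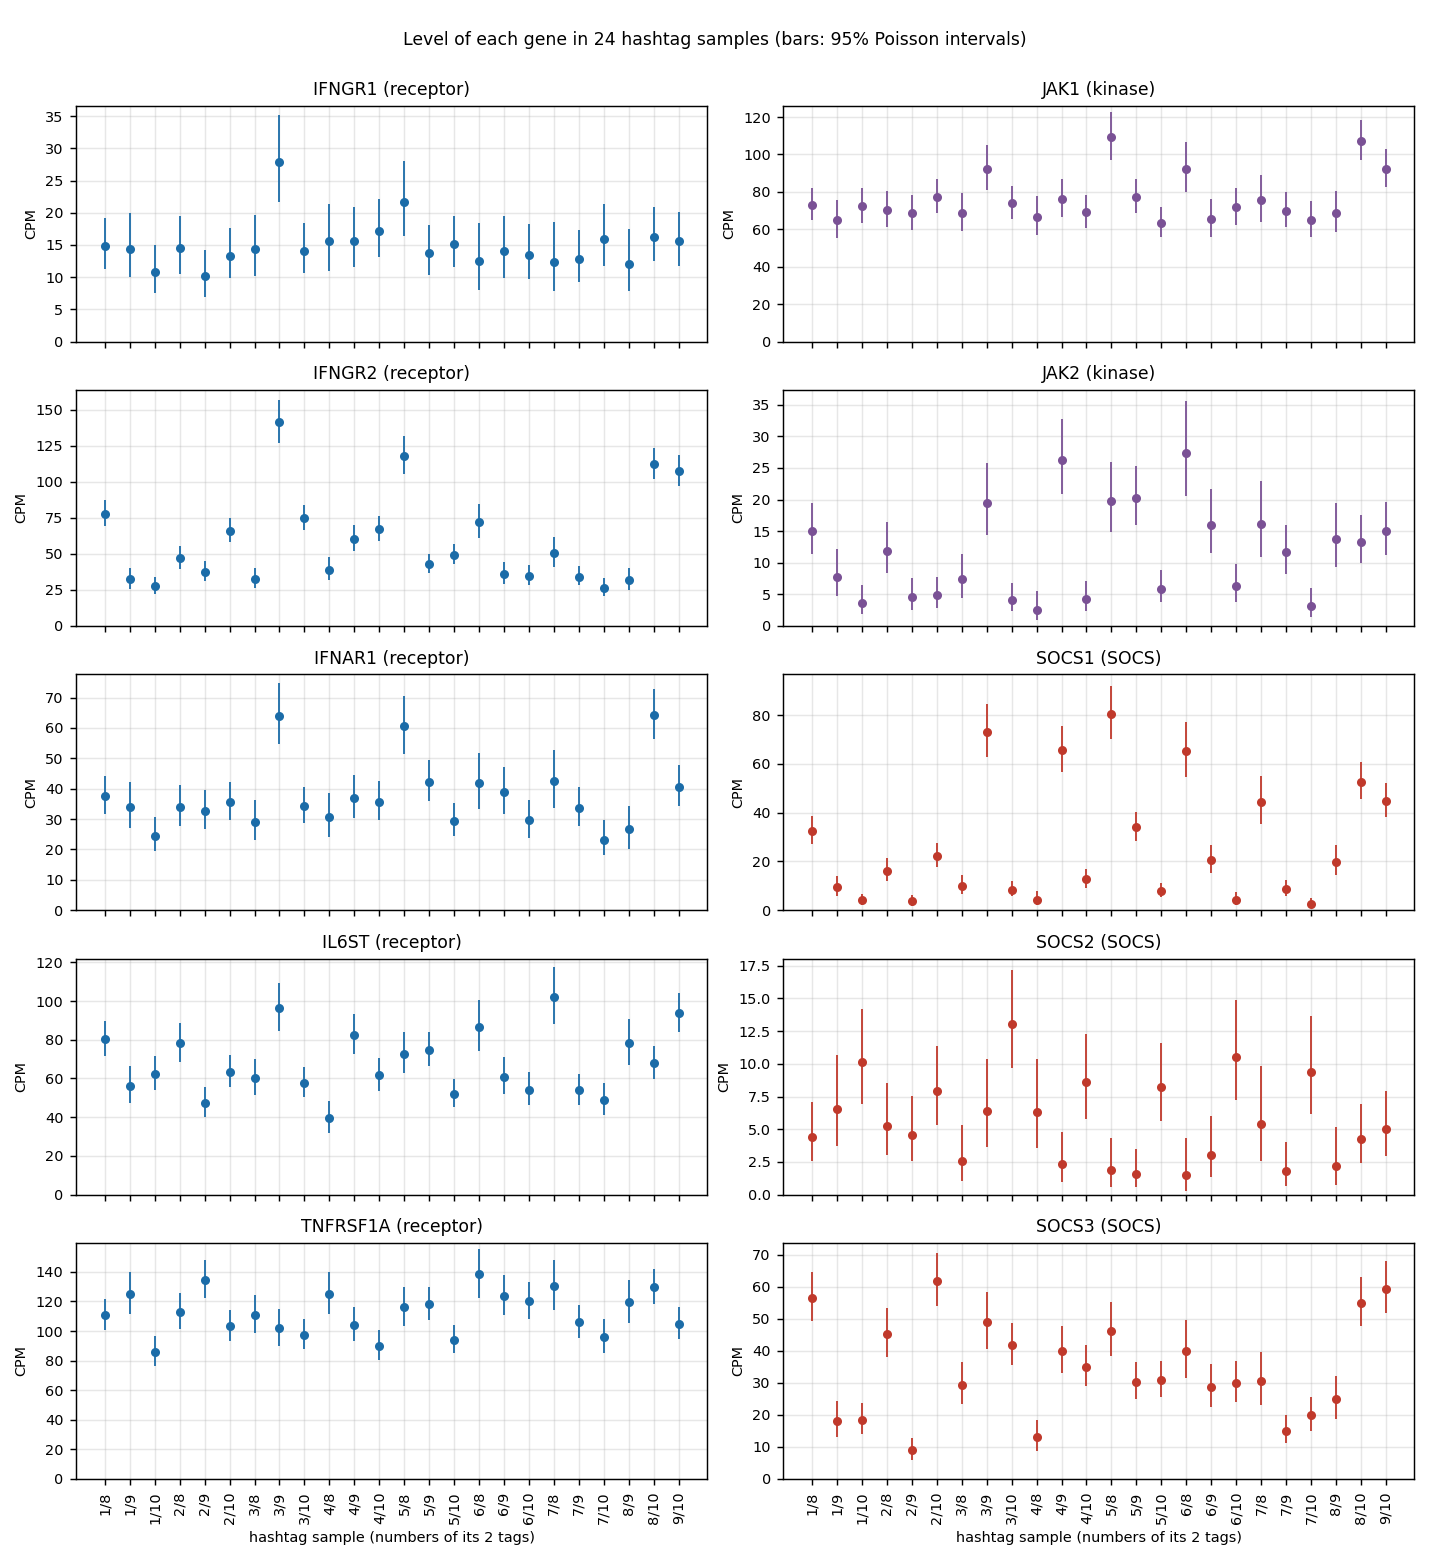
Level of each of the 10 genes (y axis, CPM, starting at 0) in the 24 hashtag samples (x axis, numbers of the 2 tags). Points are summed levels and bars 95% Poisson intervals. SOCS1 spans 80.7 CPM in HTO5/HTO8 and 2.43 CPM in HTO7/HTO10, while TNFRSF1A and JAK1 stay within 1.61-fold and 1.73-fold.

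Among the interferon receptor chains, IFNGR2, the signalling chain of the interferon gamma receptor (chr21:33402896-33479348, plus strand, as GENCODE 29 places it on GRCh38), had the widest range on the log2(CPM + 10) scale. It was highest at 141 CPM in HTO3/HTO9, had a median of 48.1 CPM, and was lowest at 26.4 CPM in HTO7/HTO10. The highest level was 5.35 times the lowest (95% interval 4.17 to 6.95), and without HTO3/HTO9 the ratio was 4.47, with the next highest sample, HTO5/HTO8, at 118 CPM. IFNGR1, the ligand-binding chain of the same receptor (chr6:137197484-137219449, minus strand), was flatter. It was highest at 27.9 CPM, also in HTO3/HTO9, with a median of 14.3 CPM and the lowest level, 10.1 CPM, in HTO2/HTO9. That is a ratio of 2.76 (1.80 to 4.31), or 2.14 without HTO3/HTO9. The chain that binds the ligand thus differed less between the extreme samples than the chain that completes the receptor. The intervals of the ratios, which do not allow for the choice of those samples, overlapped only between 4.17 and 4.31.

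IFNAR1, a chain of the type I interferon receptor, lies on the same arm of chromosome 21 (chr21:33324477-33359862, plus strand). It was highest at 64.3 CPM in HTO8/HTO10, had a median of 34.9 CPM, and was lowest at 23.3 CPM in HTO7/HTO10. The highest level was 2.76 times the lowest (2.10 to 3.68). HTO3/HTO9 and HTO5/HTO8 came next to the top at 64.1 and 60.5 CPM, so the samples at the top were those at the top of IFNGR2. IFNAR1 and IFNGR2 stand in a row of receptor genes with IFNAR2, the other type I interferon receptor chain, and IL10RB, a chain shared by the receptors for interleukin 10 and interferon lambda. The 4 neighbours did not have the same pattern. IFNAR2 ranked samples almost as IFNGR2 did (Spearman's rho 0.934), IFNAR1 less closely (0.738) and IL10RB least (0.376). These correlations are over 20 samples. They are descriptions with no p, since all samples came from 1 pool and shared doses and times, and the genes of the row were looked at together after their values were seen.

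IL6ST, the signal-transducing chain gp130 shared by interleukin 6-type cytokines (chr5:55935095-55994993, minus strand), was highest at 102 CPM in HTO7/HTO8, had a median of 62.8 CPM and was lowest at 39.5 CPM in HTO4/HTO8. The ratio was 2.58 (2.01 to 3.34). TNFRSF1A (chr12:6328757-6342114, minus strand) was the flattest of the 10 genes, with its highest level of 138 CPM in HTO6/HTO8, a median of 112 CPM and its lowest level of 85.8 CPM in HTO1/HTO10, a ratio of 1.61 (1.36 to 1.91). Its second highest level, 135 CPM, was in HTO2/HTO9, a sample in which IFNGR1, SOCS3 and the interferon targets described below were at or near their lowest. With only cells of 2000 genes or more and a mitochondrial share of 10% or less, TNFRSF1A was not the flattest. Its ratio was then 2.16, and that of JAK1 1.76. These filters left between 30 cells (HTO3/HTO9) and 151 cells (HTO1/HTO8) in a sample, so the ratios under them rest on fewer cells. HTO6/HTO8, the highest sample for TNFRSF1A above, kept 37 of its 161 cells.

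JAK1, the kinase shared by the interferon and gp130 receptors (chr1:64833229-64966504, minus strand), and JAK2, which pairs with it at the interferon gamma receptor (chr9:4984390-5128183, plus strand), differed in their spread. JAK1 was highest at 109 CPM in HTO5/HTO8, with a median of 72.0 CPM and the lowest level, 63.3 CPM, in HTO5/HTO10, a ratio of 1.73 (1.46 to 2.06). JAK2 was highest at 27.4 CPM in HTO6/HTO8, had a median of 11.7 CPM, and was lowest at 2.52 CPM in HTO4/HTO8, where it rested on 6 UMIs. Its ratio was 10.9 (4.68 to 30.9), an interval that lies above that of JAK1. JAK2 made up 25.6% of the JAK1 and JAK2 UMIs in HTO4/HTO9 (exact binomial 95% interval 20.9% to 30.9%) and 3.64% in HTO4/HTO8 (1.35% to 7.75%).

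SOCS1, the inhibitor that binds JAK1, JAK2 and TYK2 directly (chr16:11254405-11256200, minus strand), had the widest range of the 10, also by the ratio of its highest to its lowest level. It was highest at 80.7 CPM in HTO5/HTO8, had a median of 18.1 CPM, and was lowest at 2.43 CPM in HTO7/HTO10, where it rested on 7 UMIs. The ratio was 33.2 (15.8 to 83.5), or 22.0 without HTO7/HTO10. HTO3/HTO9 was the next highest at 73.2 CPM. HTO4/HTO8, HTO1/HTO10 and HTO2/HTO9 were at 4.20, 3.98 and 3.67 CPM, all with intervals that overlap that of HTO7/HTO10.

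SOCS3, the inhibitor that acts on gp130-bound kinases (chr17:78356778-78360077, minus strand), was highest at 61.8 CPM in HTO2/HTO10, had a median of 30.7 CPM, and was lowest at 8.88 CPM in HTO2/HTO9. The ratio was 6.96 (4.72 to 10.6), or 4.75 without HTO2/HTO9. SOCS3 did not share its top sample with SOCS1, which had 22.1 CPM in HTO2/HTO10. SOCS1 made up 63.5% of the UMIs of the pair in HTO5/HTO8 (58.2% to 68.7%) and 10.9% in HTO7/HTO10 (4.51% to 21.2%).

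SOCS2, best known as an inhibitor of growth hormone signalling (chr12:93569814-93583487, plus strand), had 419 UMIs in all and ordered the samples in another way. It was highest at 13.0 CPM in HTO3/HTO10, had a median of 5.13 CPM and was lowest at 1.49 CPM, from 3 UMIs, in HTO6/HTO8, a ratio of 8.74 (2.82 to 43.8). In HTO5/HTO8, where SOCS1 was highest, SOCS2 was at 1.87 CPM.

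Taking inhibitors beside receptors, SOCS1, SOCS2 and SOCS3 together made up 26.5% of the UMIs of these 3 and the 5 receptor genes in HTO4/HTO9 (24.0% to 29.1%). In HTO2/HTO9 the share was 6.13% (4.66% to 7.88%). The receptor sum differed less than the SOCS sum: receptors were highest at 431 CPM in HTO3/HTO9 and lowest at 210 CPM in HTO7/HTO10, while SOCS genes were highest at 129 CPM in HTO5/HTO8 and lowest at 17.1 CPM in HTO2/HTO9.

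**Figure D2:**
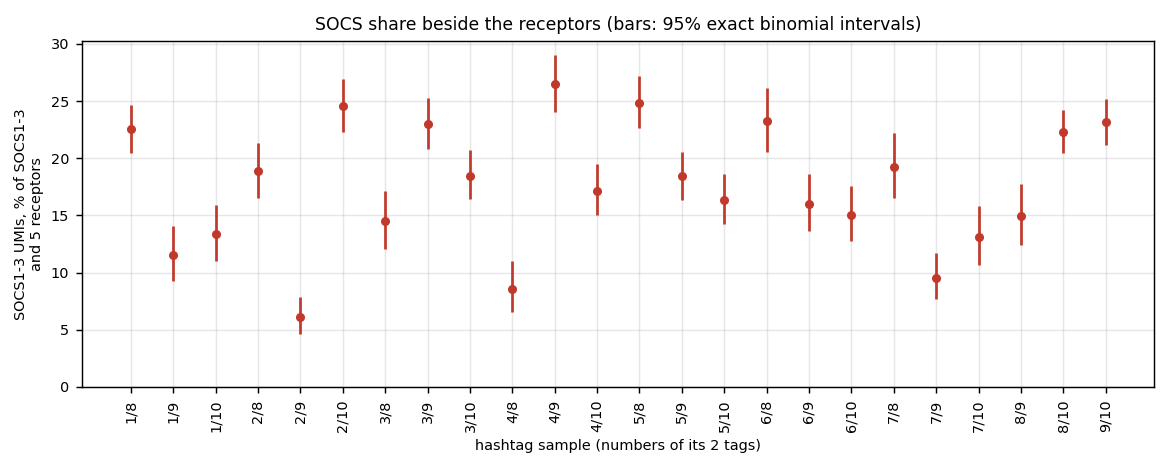
Share of SOCS1, SOCS2 and SOCS3 among the UMIs of these 3 genes and the 5 receptor genes (y axis, percent) in each hashtag sample (x axis). Bars are exact binomial 95% intervals; the highest share is 26.5% in HTO4/HTO9 and the lowest 6.13% in HTO2/HTO9.

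To describe which samples were high, the 10 genes were set beside the summed levels of established targets of interferon gamma (such as CXCL9, CXCL10, GBP1, IRF1 and IDO1), of NF-kB (such as NFKBIA, TNFAIP3, ICAM1 and CXCL8) and of STAT3 (such as CEBPD, JUNB and PIM1). None of the 10 is in a target list. The interferon gamma targets were highest at 19096 CPM in HTO3/HTO9 and lowest at 332 CPM in HTO4/HTO8. In these targets HTO1/HTO10, HTO2/HTO9, HTO4/HTO8 and HTO7/HTO10 stood apart below a gap that took 0.319 of the range in log2 units, over the limit of 0.25, so rho was taken over the other 20 samples. The interferon gamma and NF-kB lists themselves had a rho of 0.435 with each other.

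JAK2 had the closest relation to the interferon gamma targets, with a rho of 0.911, followed by SOCS1 with 0.889, IFNAR1 with 0.758 and IL6ST with 0.702. A rho of 0.7 or more was thus found for 4 of the 10 genes, where 7.31% of the 9495 genes that averaged 5 CPM or more reached it. The limit of 0.7 and the gap limit were set after the values were seen. The members were also chosen with earlier results known, so this count and those below only describe. IL6ST was just inside the limit of 0.7 and had 0.661 without HTO3/HTO9 and 0.656 without HTO5/HTO10. IFNGR2, in spite of its wide range, had a rho of 0.406 with these targets, and SOCS3 had 0.186. Both depended on the samples set apart: over all 24 samples IFNGR2 had 0.548 and SOCS3 0.492, beside 0.938 for JAK2 and 0.930 for SOCS1. SOCS2 had the only negative value of the 10, -0.62, and 21.2% of the 9495 genes had a rho as low or lower. A rho of -0.7 or less was found for none of the 10, and for 15.2% of the 9495 genes. SOCS2 had -0.73 without HTO3/HTO9 and -0.71 without HTO3/HTO8, which makes that count 1.

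With the NF-kB targets the order was another one. IFNGR2 led with a rho of 0.907, SOCS3 had 0.860 and JAK1 0.788. These 3 of 10 compare with 2.32% of the 9495 genes. With only cells of 2000 genes or more and a mitochondrial share of 10% or less, SOCS3 had 0.684 and JAK1 0.580. Samples then held 30 to 151 cells. IFNAR1 was just below the limit of 0.7 with 0.692, SOCS1 had 0.674, JAK2 had 0.215 and TNFRSF1A had -0.30. IFNAR1 and SOCS1 passed the limit under other choices: without HTO2/HTO10 IFNAR1 had 0.744, without HTO3/HTO10 SOCS1 had 0.809, and over all 24 samples IFNAR1 had 0.774, SOCS1 0.809 and JAK2 0.518. SOCS1 and IFNAR1 are therefore not separated from the NF-kB targets by this limit. With the STAT3 targets none of the 10 reached 0.7, which 0.832% of the 9495 genes did. SOCS3, itself a textbook STAT3 target, had a rho of 0.611 with that list, and IFNGR2 had 0.645. The STAT3 list had a rho of 0.741 with the NF-kB list.

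**Figure D3:**
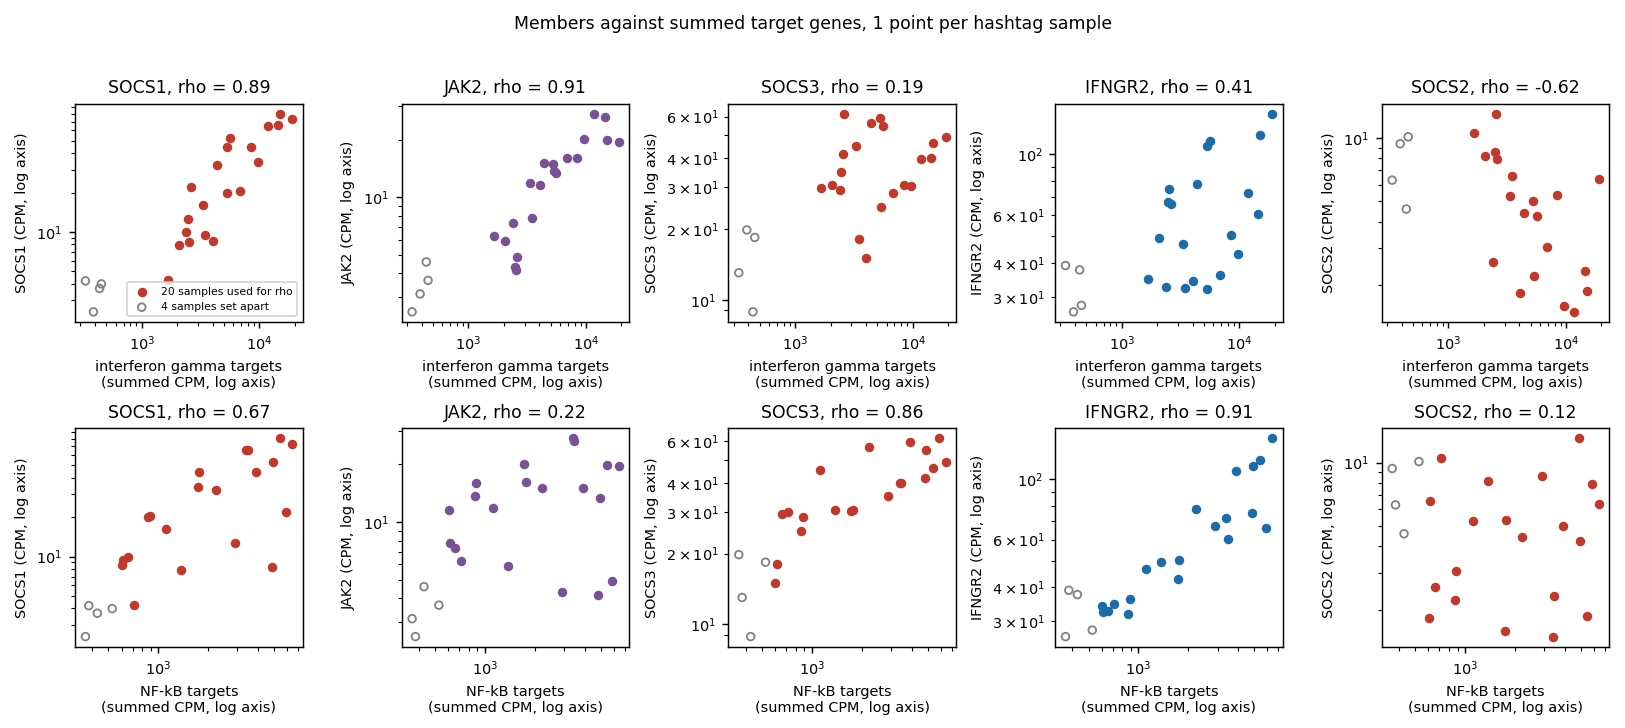
Levels of SOCS1, JAK2, SOCS3, IFNGR2 and SOCS2 (y axis, CPM, log axis) against the summed level of target genes (x axis, CPM, log axis), 1 point for each hashtag sample, with Spearman's rho over the 20 samples shown as filled points (open circles are the 4 samples that stood apart; colors mark the gene's role). JAK2 and SOCS1 follow the interferon gamma targets (0.911 and 0.889), and IFNGR2 and SOCS3 follow the NF-kB targets (0.907 and 0.860).

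Among themselves, the members did not fall into separate sets over these 20 samples. SOCS1 had a rho of 0.827 with IFNAR1, 0.809 with JAK2 and 0.808 with IL6ST, and SOCS3 had 0.857 with IFNGR2. JAK1 had 0.782 with SOCS1, 0.779 with IFNAR1, 0.762 with IFNGR2 and 0.693 with SOCS3, and IFNGR2 had 0.738 with IFNAR1. SOCS1 and SOCS3 had 0.532 with each other, JAK2 and SOCS3 had 0.087, and SOCS2 and JAK2 had -0.73.

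A pair of samples, picked after their values were seen, shows the difference. HTO6/HTO9 had 6867 CPM of interferon gamma targets and 886 CPM of NF-kB targets, and HTO3/HTO10 had 2540 and 4832 CPM. JAK2 was at 16.0 CPM in HTO6/HTO9 and 4.17 CPM in HTO3/HTO10, and SOCS1 was at 20.6 CPM in HTO6/HTO9 and 8.35 CPM in HTO3/HTO10. IFNGR2 and SOCS3 went the other way, with 36.2 and 28.6 CPM in HTO6/HTO9 against 74.9 and 41.7 CPM in HTO3/HTO10. The intervals of all but SOCS3 were separate between these samples, and those of SOCS3 met between 35.5 and 35.8 CPM.

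Depth and mitochondrial share moved with some of these levels. Over the same 20 samples JAK2 had a rho of -0.81 with the median number of UMIs per cell, SOCS1 had -0.67 and SOCS2 0.714. With the median mitochondrial share JAK2 had 0.671, SOCS1 0.555 and the interferon gamma targets 0.777. The part of depth and mitochondrial share in these relations was not tested. Leaving out 1 sample at a time, HTO3/HTO9 included, kept rho with the interferon gamma targets between 0.896 and 0.919 for JAK2 and between 0.870 and 0.912 for SOCS1. The correlation with the NF-kB targets stayed between 0.891 and 0.946 for IFNGR2 and between 0.837 and 0.902 for SOCS3.

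The genes whose levels ordered all 24 samples most like each member were found among the 5767 genes that averaged 20 CPM or more. Closest to SOCS1 were KIAA1217 (rho 0.968), SYNJ2 and SLFN5 (0.961 each). Closest to JAK2 were PARP14 (0.957), CTSS (0.954) and GBP4 (0.952), the last of which is in the interferon gamma list. SOCS3 was closest to RELB (0.949), an NF-kB subunit that is in the NF-kB list, NFKBIE (0.948), an inhibitor of NF-kB, and CD83 (0.931). IFNGR2 was closest to NINJ1 (0.919), to TNFRSF9 (0.917), which encodes the costimulatory receptor 4-1BB, and to its chromosomal neighbour IFNAR2 (0.915).

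IL6ST was closest to SAA1 (0.894), an acute-phase protein gene, CD274 (0.893), which encodes PD-L1, and UBE2D3 (0.881). IFNAR1 was closest to the adhesion molecule gene VCAM1 (0.877), EHD1 (0.871) and SOD2 (0.869). JAK1 was closest to ZNF267 (0.866), SAT1 (0.862) and RELA (0.851), which encodes the p65 subunit of NF-kB. SOCS2 was closest to TCEAL4 (0.848), ERBIN (0.841) and YTHDC1 (0.827). TNFRSF1A and IFNGR1 had no neighbour as close. The nearest to TNFRSF1A were UGDH (0.748), MPC2 (0.747) and WDR54 (0.737), and the nearest to IFNGR1 were STK10 (0.697), TRAF3 (0.675) and C9orf16 (0.667).

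Beyond the 10 genes, 9 lists of pathway genes held 52 others. Of these, 23 passed the minimum mean of 20 CPM, with a median range of 0.85. Of the 23, 2 ranged 4-fold or more and 9 ranged 2-fold or more. Over all 5767 genes that passed the minimum the shares were 4.13% and 26.1%, with a median range of 0.74. The 2 genes at 4-fold were BIRC3 and TNFRSF1B.

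**Figure D4:**
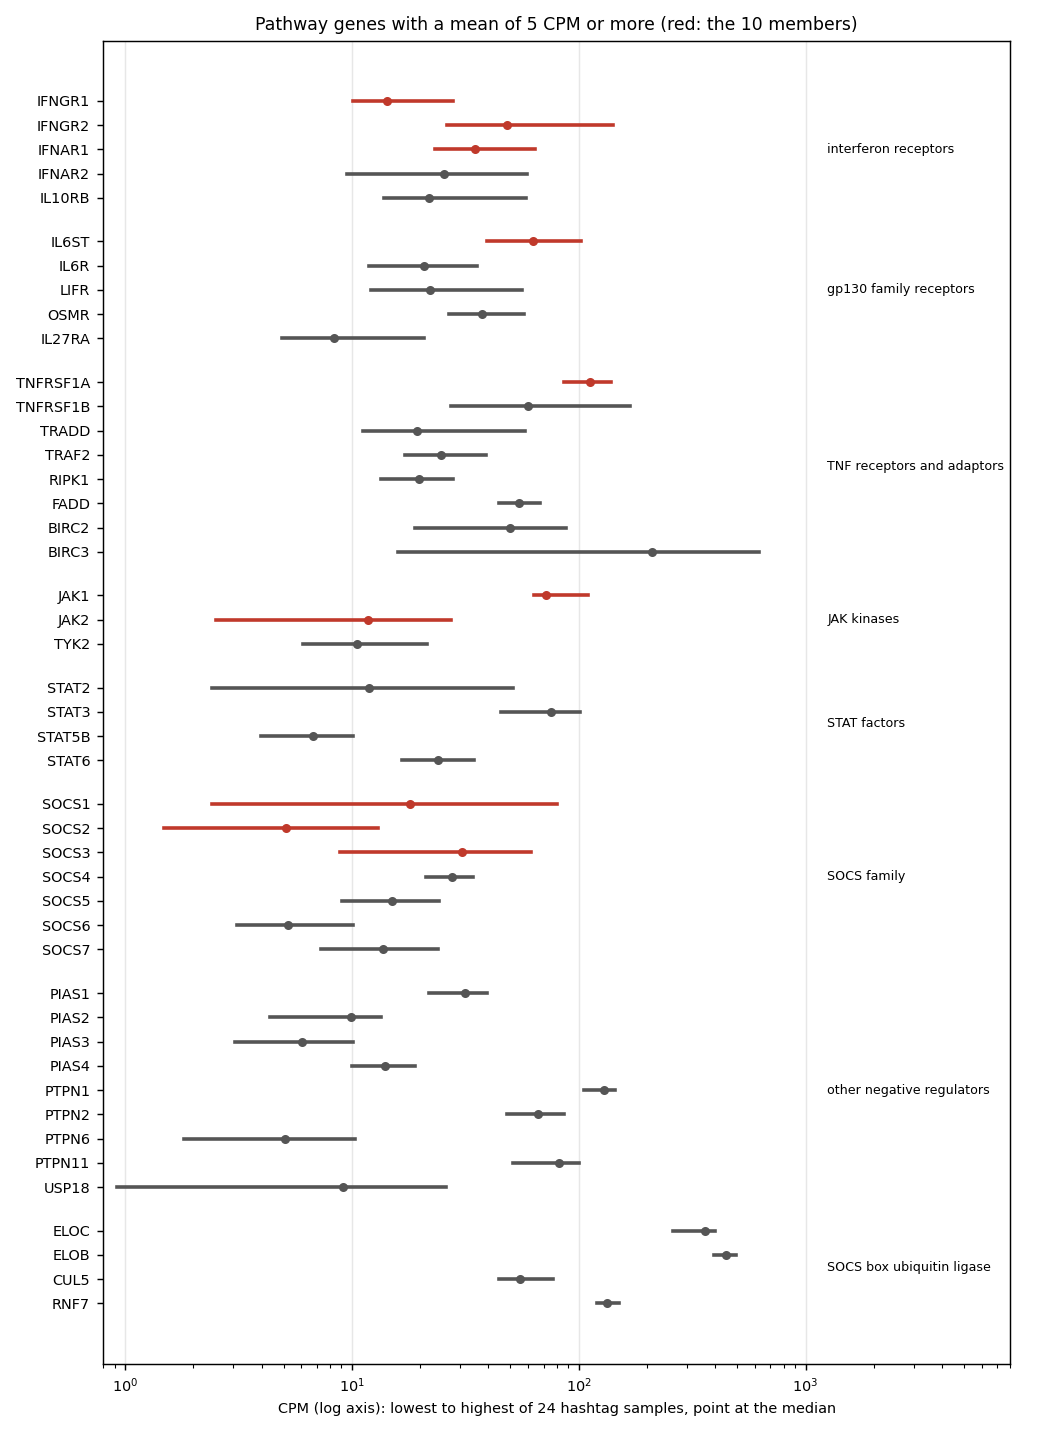
Pathway genes that averaged 5 CPM or more, grouped by list: each line spans the lowest to the highest of the 24 hashtag samples in CPM (x axis, log axis), with a point at the median. The 10 members are in red; BIRC3 spans 625 and 16.0 CPM and SOCS1 80.7 and 2.43 CPM.

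Among receptors and their adaptors, the other interferon receptor chains IFNAR2 and IL10RB each ranged 2-fold or more. IFNAR2 was highest at 59.4 CPM in HTO5/HTO8 and lowest at 9.50 CPM in HTO1/HTO10, a ratio of 6.25 (4.23 to 9.50) whose interval holds the 5.35 of IFNGR2. IL10RB was highest at 58.5 CPM in HTO3/HTO9 and lowest at 13.9 CPM in HTO4/HTO8. The partners of gp130 for leukemia inhibitory factor and oncostatin M, LIFR and OSMR, were highest at 56.5 and 57.1 CPM and lowest at 12.2 and 26.9 CPM. In the TNF receptor list, TNFRSF1B, the second TNF receptor, was highest at 168 CPM in HTO3/HTO9 and lowest at 27.3 CPM in HTO2/HTO9, a ratio of 6.16 (4.89 to 7.84) beside the 1.61 of TNFRSF1A. BIRC3, an inhibitor of apoptosis recruited to TNF receptor complexes and a known NF-kB target, was highest at 625 CPM in HTO3/HTO9 and lowest at 16.0 CPM in HTO4/HTO8.

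Among kinases and transcription factors, TYK2, the kinase of the type I interferon receptor, had a median of 10.6 CPM, and JAK3, the kinase of lymphoid cytokine receptors, was at 1.07 CPM or less in every sample. STAT3, the main factor downstream of gp130, was highest at 101 CPM in HTO1/HTO8 and lowest at 45.6 CPM in HTO2/HTO9, a ratio of 2.21 (1.83 to 2.69). STAT6, the factor of interleukin 4 signalling, was highest at 34.6 CPM in HTO3/HTO9 and lowest at 16.6 CPM in HTO5/HTO10, a ratio of 2.08 (1.49 to 2.91). STAT2, which joins the complex that binds the ISRE, had a mean below 20 CPM and was added after its values were seen. It was highest at 51.4 CPM in HTO3/HTO9 and lowest at 2.43 CPM, from 7 UMIs, in HTO7/HTO10, a ratio of 21.1 (9.96 to 53.6).

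Among inhibitors, the other family members that were best detected, SOCS4 and SOCS5, were flat beside SOCS1 and SOCS3: SOCS4 was highest at 34.3 CPM and lowest at 21.3 CPM, and SOCS5, itself below the minimum mean of 20 CPM, was highest at 24.3 CPM and lowest at 9.03 CPM. The phosphatases PTPN1 and PTPN11 had ratios of 1.38 (1.16 to 1.63) and 1.96 (1.59 to 2.42). The elongin genes ELOB and ELOC, whose products link SOCS proteins to the ubiquitin ligase, had ratios of 1.25 (1.16 to 1.34) and 1.52 (1.39 to 1.67). None of the 9 genes that passed the minimum in the lists of other negative regulators, the SOCS box ligase and the other SOCS family members ranged 2-fold. Over all 5767 genes that passed it, 26.1% did. Below the minimum, and named after their values were seen, were USP18, CISH and PTPN6. USP18, a negative regulator of the type I interferon receptor, was highest at 26.0 CPM in HTO4/HTO9 and lowest at 0.920 CPM, from 3 UMIs, in HTO1/HTO10, a ratio of 28.3 (9.32 to 140). CISH, a SOCS family member, had a ratio of 21.4 (3.49 to 879), with 1 UMI in its lowest sample, and the phosphatase gene PTPN6 had 5.70 (2.41 to 15.5).

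Among ligand genes, IFNG, whose product drives the interferon gamma targets, had no UMI in the 5298 cells, which allows a level of up to 0.0410 CPM over all samples together. LIF, a gp130 ligand, was highest at 31.6 CPM in HTO3/HTO10 and lowest at 9.76 CPM in HTO8/HTO9. CLCF1, another gp130 ligand, was highest at 12.0 CPM in HTO1/HTO10 and lowest at 2.24 CPM, from 6 UMIs, in HTO5/HTO8.

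In single cells, each cell was thinned to 3000 UMIs so that samples of unequal depth could be set side by side, which kept 5261 of the 5298 cells. SOCS1 had at least 1 UMI in 22.7% of 233 cells of HTO5/HTO8 (17.5% to 28.7%), and in 0 of 164 cells of HTO4/HTO8, a count of 0 that allows up to 1.83% of cells with a UMI at this thinned depth. Before thinning the shares were 56.2% in HTO5/HTO8 and 3.66% in HTO4/HTO8. The cells with SOCS1 in HTO5/HTO8 held 1.21 UMIs each on average after thinning. SOCS3 was found in 17.6% of the cells of HTO9/HTO10 and 2.87% of those of HTO1/HTO9, JAK2 in 9.49% of HTO6/HTO8 and 0 of 164 cells of HTO4/HTO8, and IFNGR2 in 32.1% of HTO3/HTO9 and 7.89% of HTO3/HTO8. A cell type that should lack these genes, from which free RNA could be judged, is not in a pool of 1 line.

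Within a hashtag sample, cells with and without a UMI of a member were set side by side for the thinned, summed target UMIs, in samples with at least 5 positive cells. Cells with SOCS1 had more interferon gamma target UMIs than cells without it in 15 of 17 samples, with a median ratio of 1.13. They also had more NF-kB target UMIs in 13 of the 17, with a median ratio of 1.12. Cells with JAK2 had more interferon gamma target UMIs in 12 of 15 samples, with a median ratio of 1.06, and more NF-kB target UMIs in 12 of 15, with a median ratio of 1.13. For SOCS3 the interferon gamma targets were higher in positive cells in 14 of 24 samples, with a median ratio of 1.04, and the NF-kB targets in 13 of 24, with a median ratio of 1.02. The ratios of single samples spread widely, from as few as 5 positive cells. For SOCS1 they were 0.978 to 1.46 with the interferon gamma targets and 0.673 to 1.77 with the NF-kB targets. For JAK2 they were 0.827 to 1.57 and 0.795 to 1.35. No share over other genes is given beside these counts. They therefore do not tell whether SOCS1 or JAK2 goes more with one list than with the other between cells of a sample.

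A small set of cells differed from the rest in these genes. Cells with at least 5 UMIs of KRT81, a hair keratin gene, numbered 234, against 6174 other kept cells, and were at most 4.39% of any hashtag sample. They made up 8.38% of the 1110 kept cells without a hashtag sample (93 cells) and 2.66% of the 5298 with one (141 cells). Their median depth was 19246 UMIs, against 13393 in the other cells. CDH1, the gene of E-cadherin, was at 49.7 CPM in KRT81 cells and 0.157 CPM in the other cells, EPCAM was at 274 and 36.1 CPM, and VIM, the gene of vimentin, was at 554 and 2301 CPM. Among the other epithelial markers, KRT7 was at 978 and 534 CPM, KRT19 at 469 and 169 CPM, and KRT18 at 1869 and 1591 CPM. KRT8 was lower in KRT81 cells, at 574 and 700 CPM, as was PAX8, at 1.30 CPM from 6 UMIs and 3.14 CPM. MUC16 had 0 UMIs in KRT81 cells and 6 in the other cells. The set was chosen with the data known and is given without a cell type name. Whether doublets or the greater depth of these cells have a part in their levels was not tested.

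SOCS2 was at 35.9 CPM in KRT81 cells (30.6 to 41.7) and 4.50 CPM in the other cells (4.07 to 4.96), a ratio of 7.97 (6.61 to 9.57). Compared within hashtag samples the ratio was 8.93 (7.23 to 10.9). In the cells with a hashtag sample, KRT81 cells held 95 of the 419 SOCS2 UMIs, 22.7%. The other SOCS genes were lower in them: SOCS3 was at 15.8 CPM in KRT81 cells and 36.2 CPM in the other cells, and SOCS1 was at 15.6 CPM in KRT81 cells and 25.9 CPM in the other cells.

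The receptors split. IL6ST was at 21.0 CPM in KRT81 cells and 66.1 CPM in the other cells, a ratio of 0.317 (0.257 to 0.387) and of 0.216 within samples. TNFRSF1A was at 55.3 CPM in KRT81 cells and 115 CPM in the other cells, a ratio of 0.481 (0.423 to 0.544). IFNAR1 was higher in KRT81 cells, with 50.1 CPM, than in the other cells, with 36.0 CPM. JAK1 was likewise higher in KRT81 cells, with 111 CPM, than in the other cells, with 73.6 CPM. IFNGR1 and IFNGR2 were lower in KRT81 cells over all kept cells, with ratios of 0.608 (0.435 to 0.830) and 0.839 (0.733 to 0.956), but within samples their intervals included 1. For JAK2 both intervals included 1.

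Without the KRT81 cells SOCS2 was highest at 10.0 CPM in HTO3/HTO10, had a median of 3.81 CPM and was lowest at 1.25 CPM in HTO7/HTO9, a ratio of 8.0 (2.88 to 30.9). Its rho with the interferon gamma targets was then -0.52, and that with median depth 0.626. With these cells included, the highest level was 13.0 CPM and the ratio 8.74 (2.82 to 43.8). The lowest samples rested on 4 UMIs without these cells and 3 UMIs with them. Such wide intervals do not tell whether the spread of SOCS2 over samples changed.

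**Figure D5:**
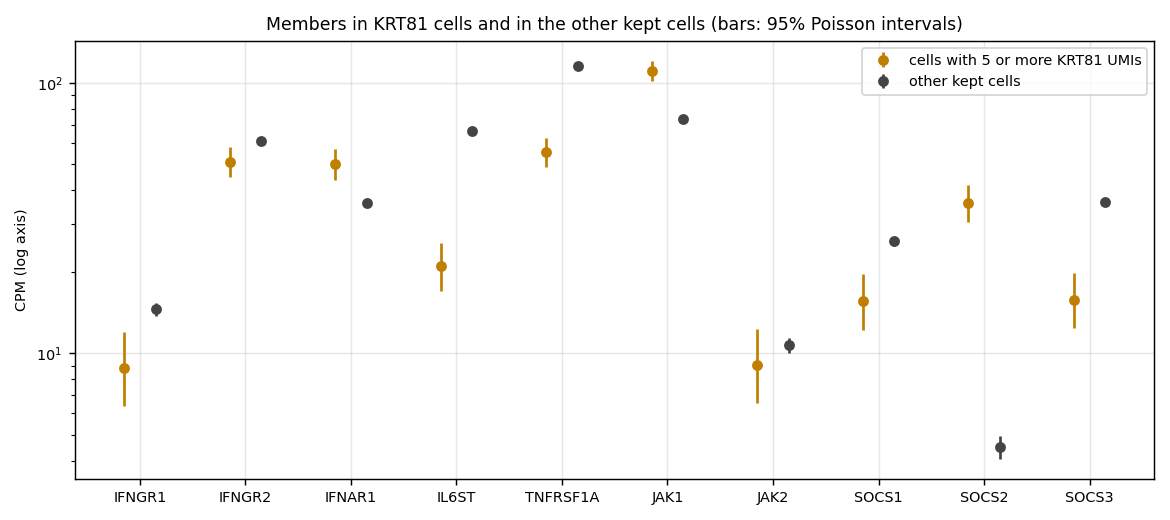
Level of each of the 10 genes (y axis, CPM, log axis) in the 234 cells with at least 5 KRT81 UMIs and in the 6174 other kept cells, with 95% Poisson intervals. SOCS2 is higher in KRT81 cells (35.9 against 4.50 CPM) and IL6ST lower (21.0 against 66.1 CPM).

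Some counts may include reads of neighbouring or similar genes, since the sources used here do not state how strand was counted. IFNGR2 overlaps TMEM50B on the opposite strand, which had 1203 UMIs of its own and a rho of 0.120 with IFNGR2. SOCS1 overlaps RMI2 (889 UMIs) and JAK1 overlaps RAVER2 (396 UMIs), both on the opposite strand. Processed pseudogenes of IL6ST (IL6STP1 on chromosome 17) and of SOCS2 (SOCS2P1 on chromosome 20 and SOCS2P2 on chromosome 22) are annotated, so counts of these genes are uncertain to that extent.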

How the data were processed

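The labels describe 1 pool of OVCAR5 cells under 24 conditions, sequenced as 2 gene-expression and 2 cell-hashing libraries. The deposited values are UMI counts of 36602 genes and 10 hashtags in 10660 barcodes, made by the authors. The program was Cell Ranger, version 5.0.1 per the file headers and version 2.1.1 per the submitters' processing notes, which also name GRCh38. The sources used here do not give the annotation, the strand setting or how cells were called.

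Barcodes were kept where they had 1000 genes or more and a mitochondrial share of 20% or less (6408), and 5298 of them had a tag pair whose second tag was at least 3 times the third. Doublets within 1 tag pair were not removed. UMIs were summed per pair with at least 100 barcodes and divided by the total to give CPM. Intervals are exact Poisson for levels, conditional binomial for ratios and exact binomial for shares, at 95%, and cover counting error only. They do not allow for the choice of the highest and lowest samples by their values. Ranges used a pseudocount of 10 CPM, and their calculation was tested on simulated data. The labels give no tag pair a condition, so no groups were compared.

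Gene names came from the deposited features. Coordinates came from GENCODE 29 on GRCh38 (34616 of 36602 identifiers matched) and promoters from RefSeq. Besides the 10 members, named genes are the 2 with the highest mean in each pathway list, each list gene ranging 4-fold, and the 3 genes most like each member. A pathway gene that is not reported here was left out of the lists and their counts. The members, lists and settings were chosen with earlier results of these data known, and the rho limit of 0.7, the gap limit, the receptor row, the shares of gene pairs and the comparison of KRT81 cells within samples after the values were seen. Python 3.11.15, numpy 2.4.6, scipy 1.17.1 and pandas 2.3.3 were used.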

Additional observations from a re-analysis of the deposited data

Results flagged for a closer look

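The 10 genes were also measured in cells outside the comparison of hashtag samples. In the 1110 kept cells without a hashtag sample their summed level was 419 CPM, and in the 4252 barcodes outside the filters it was 295 CPM, beside 445 CPM in cells assigned to a sample. In barcodes outside the filters IFNGR2 was at 29.4 CPM and TNFRSF1A at 68.4 CPM, against 60.1 and 111 CPM in assigned cells. IL6ST was at 62.6 CPM outside the filters and 67.1 CPM in assigned cells, and JAK2 was at 13.5 CPM outside the filters and 11.3 CPM in assigned cells. Both values were singled out because these cells enter no sample, and neither set has a control of its own.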

How the results depend on the processing

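The count of genes ranging 4-fold or more, 2 of 7, was 0 when the pseudocount was 50 CPM, 3 when it was 1 CPM, and 1 to 2 with 1 hashtag sample left out (1 without HTO3/HTO9 or without HTO7/HTO10). The count ranging 2-fold or more, 5 of 7, was 2 with a pseudocount of 50 CPM and 4 to 5 with 1 sample left out. It was 6 of 7 under the stricter cell filters named next, and 7 of 10 with a minimum mean of 5 CPM or with none. Of 300 recomputed ratios 3 left the counting interval, all under stricter cell filters (2000 genes or more, mitochondrial share of 10% or less): IFNAR1 4.68, TNFRSF1A 2.16 and IL6ST 3.42. Those filters left 30 to 151 cells in a sample, and HTO3/HTO9, with 246 cells before, kept the 30. The cause was not tested. Most of the 300 left out 1 sample, which changes a ratio only where that sample is its highest or lowest. All 560 recomputed relations of members to lists stayed within the Fisher 95% interval of the reported rho. That is a weak check, since the interval is wide with 20 samples and most recomputations left out 1 sample. JAK2 with the NF-kB targets, reported at 0.215, moved between 0.0165 and 0.518 within it. Some relations crossed the limit of 0.7: those of IL6ST, SOCS3, JAK1, IFNAR1, SOCS1 and SOCS2 are given beside their values, and IFNAR1 also had a Pearson's r of 0.697 with the interferon gamma targets. SOCS2, near 0 with the NF-kB targets, changed sign (-0.11 to 0.392). CPM without mitochondrial genes moved the median of all genes by 0.13 to 0.21 on the log2 scale. Few UMIs limit JAK2, SOCS1 and SOCS2 in their lowest samples. No paired analysis was possible because no test between groups was made.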
